A study of Oryza sativa with 9 samples.

Results

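The NRAMP (natural resistance-associated macrophage protein) metal transporter genes and the nicotianamine synthase (NAS) genes of rice were followed in leaves. Members were all genes whose symbol or synonym in the gene table was NRAMP or NAS plus a number. The rule found 9 genes, 6 NRAMP and 3 NAS, among 17905 genes named on the array, and on 13 of the 57194 probe sets tested. Of these, 10 probe sets belonged to NRAMP genes, 5 of them to NRAMP4 alone, and each NAS gene had 1. The arrays came from Affymetrix GeneChip measurements of leaf RNA in 3 groups of 3 arrays. The first group was labelled OsHMGB707 overexpression (OE) and the second OsHMGB707 RNAi (RNAi), and wild type (WT) was the third. OsHMGB707 is a chromatin protein of the HMG box type. All plants were japonica rice Zhonghua11 seedlings, 21 days old, grown in culture solution without stress under 16 h of light at 28 °C and 8 h of dark at 24 °C.

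According to the study's methods, the OE construct drove OsHMGB707 from the constitutive cauliflower mosaic virus promoter, and the RNAi construct was driven by a ubiquitin promoter from a different vector. Each replicate was a pool of seedlings, and the labels do not name the transformed line, so the pools of a group may descend from 1 plant. No transformed control was among the arrays. The effect of a construct and that of transformation or hygromycin selection therefore cannot be told apart in a comparison with WT, nor can a growth or harvest difference shared by the arrays of a group.

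NRAMP proteins move divalent metals such as iron, manganese and cadmium across membranes with protons. In rice, OsNramp1 and OsNramp5 are plasma membrane importers best known from roots, where OsNramp5 is the main route for manganese and cadmium. OsNramp3 distributes manganese between young and old leaves at the nodes, and OsNramp2 has been placed at the vacuole membrane. Nicotianamine synthases join molecules of S-adenosyl-methionine to nicotianamine, a chelator that carries iron and zinc in the plant and that grasses turn into mugineic acids for iron uptake. In rice, OsNAS1 and OsNAS2 are known as genes induced by iron shortage, while OsNAS3 is known to be lowered in leaves by it. The gene table places NRAMP4 on chromosome 1 and NRAMP6 on chromosome 12, and since these names have been used for different loci, no role is given to them here.

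Array values were log2 values from RMA, with array medians of 5.89 to 5.94 and lower quartiles of 4.33 to 4.41. They are relative brightness values, so a level is compared between groups only within a probe set. On the brighter probe set of OsHMGB707 the RNAi arrays read 10.03 to 10.43, the arrays labelled OE 12.25 to 12.37 and the WT arrays 12.38 to 12.39. On this probe set RNAi was lower than WT (-2.13, limma adjusted p = 3.85e-06). OE differed from WT there by -0.09 (adjusted p = 0.703), without a rise. The dimmer probe set differed from WT by -0.44 in RNAi (adjusted p = 0.286) and -0.27 in OE (adjusted p = 0.419), neither called. By qPCR, the paper reports more OsHMGB707 transcript than in WT for several OE lines, and less for several RNAi lines. Whether the probes detect the transcript of the OE construct, or were near saturation, was not tested. Below, "OE" means the arrays so labelled. The leaf markers rca (Rubisco activase) and CAB2R (a chlorophyll a/b-binding protein) read 13.86 to 13.96 and 14.08 to 14.20 on their brightest probe sets. No probe set was called in any comparison among the 15 of the leaf marker list or the 5 of the root marker list. Over all probe sets 2.94% were called for OE against WT, 0.479% for RNAi against WT and 6.16% for OE against RNAi. At such shares short lists hold few calls, so this says little about tissue make-up. The leaf marker CHLI was higher than WT on every transgenic array, by 0.29 in OE (adjusted p = 0.059) and 0.21 in RNAi (adjusted p = 0.273). In the root list, the silicon transporter Lsi1 read 7.84 to 8.37 and Lsi2 read 4.06 to 4.60. Of the root list, only Lsi2 and the nitrate transporter NRT2.2 (5.66 to 5.95) had means below the array medians. The iron importer IRT1 read 7.17 to 7.92, and a gene listed as tom1 read 11.79 to 11.93. Leaf markers dimmer than the array medians included RBCS1 (2.82 to 3.29). A smaller share of cells of a type and less RNA per cell cannot be told apart in such bulk samples.

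Nramp1 (LOC4342862, chromosome 7) was the member with the largest called difference from WT, and its values were higher in both transgenic groups. Its values were 9.43, 9.92 and 10.43 on the OE arrays, 9.50, 10.06 and 10.53 on the RNAi arrays, and 8.89, 8.07 and 8.12 on the WT arrays. All 6 transgenic arrays lay above every WT array, and the values of both transgenic groups covered nearly the same range. The mean was 9.93 ± 0.50 in OE, 10.03 ± 0.52 in RNAi and 8.36 ± 0.46 in WT (SD, n = 3 each).

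The gene rose by 1.56 on the log2 scale in OE relative to WT (SE 0.32, limma adjusted p = 0.0321), which is 2.95-fold. The RNAi arrays exceeded WT by a similar 1.67 (SE 0.32, 3.18-fold), which did not pass the test over all probe sets (adjusted p = 0.0681). Both comparisons share the WT arrays. Between the lines the difference was -0.11, with a 95% interval from -0.82 to 0.61 (adjusted p = 0.881), so a difference of up to about that size in either direction is not excluded. The OE call depended on single arrays: removal of OE replicate 2 or 3, of RNAi replicate 2 or of WT replicate 2 or 3 ended it (adjusted p up to 0.137), and so did moderation with an intensity trend. The RNAi difference passed the test without RNAi replicate 1, without WT replicate 1 or with array weights (adjusted p down to 0.0145).

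**Figure D1:**
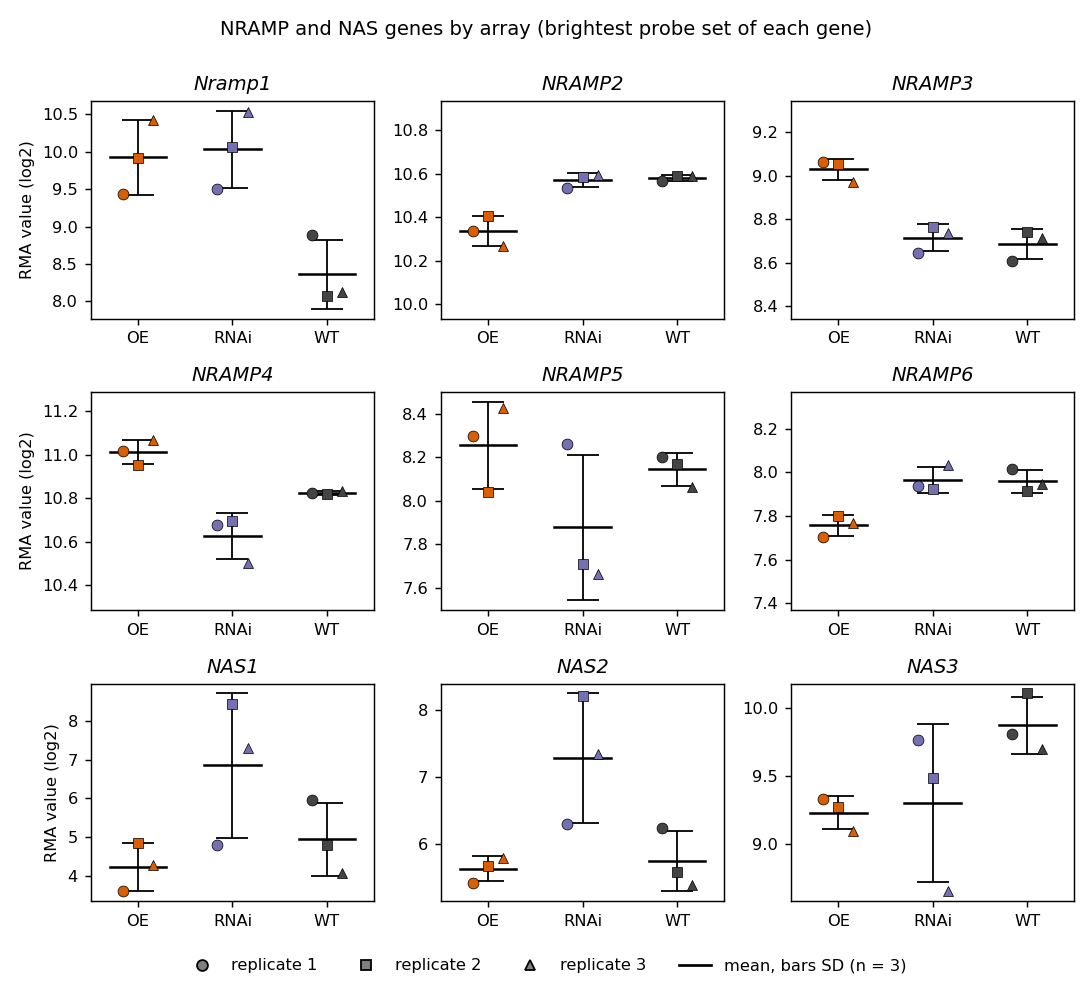
RMA values (log2, vertical axes) of the brightest probe set of each of the 9 genes on every array, by group; symbols mark replicates, and horizontal lines and bars give the mean and SD of 3 arrays. Nramp1 lies higher on all OE and RNAi arrays than on the WT arrays, NRAMP3 is high in OE only among these arrays, and NAS1 and NAS2 are spread widely in RNAi.

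NRAMP5 (LOC4342859), the known root importer of manganese and cadmium, lies close to Nramp1 on chromosome 7, with 5 genes listed between them. It read 8.30, 8.04 and 8.43 in OE, 8.26, 7.71 and 7.66 in RNAi, and 8.20, 8.17 and 8.06 in WT. The groups overlapped in all comparisons. The differences from WT were 0.11 in OE (adjusted p = 0.774) and -0.27 in RNAi (adjusted p = 0.525). Between OE and RNAi the difference was 0.38 (adjusted p = 0.195), and it was 0.57 without RNAi replicate 1 (adjusted p = 0.0194) and 0.48 with array weights (adjusted p = 0.039). Of the genes between NRAMP5 and Nramp1, 2 had a probe set, and neither rose with Nramp1. LOC4342860 differed by -0.09 in OE and 0.07 in RNAi relative to WT, and LOC4342861 fell by 0.55 in OE (adjusted p = 0.0195) and differed by 0.12 in RNAi (adjusted p = 0.68).

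NRAMP3 (LOC9267339, chromosome 6), the node transporter of manganese, showed a small change with little spread. Its values were 9.06, 9.05 and 8.97 in OE, 8.64, 8.76 and 8.74 in RNAi, and 8.61, 8.74 and 8.71 in WT. Every OE array lay above all other arrays, while RNAi and WT overlapped. NRAMP3 rose by 0.34 in OE relative to WT (SE 0.07, adjusted p = 0.0263), or 1.27-fold, and by 0.31 relative to RNAi (adjusted p = 0.0239). The difference between RNAi and WT was 0.03, with a 95% interval from -0.12 to 0.18. Removal of OE replicate 1 or 2, or of 1 WT array whichever it was, ended the call against WT (adjusted p up to 0.0968). The call against RNAi ended on removal of OE replicate 1 or 2 or of RNAi replicate 1 or 2, and in the fit of those 2 groups alone (up to 0.0882).

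NRAMP2 (LOC4332012, chromosome 3), placed at the vacuole membrane, lay lower on the OE arrays. It read 10.34, 10.40 and 10.27 in OE, 10.53, 10.58 and 10.59 in RNAi, and 10.57, 10.59 and 10.59 in WT, so that all OE arrays were below all others. The difference of -0.25 from WT (SE 0.06, adjusted p = 0.0684) and that of -0.23 from RNAi (adjusted p = 0.0533) did not pass the test. Each passed it in several alternatives, such as the fit restricted to the brighter probe sets, those whose mean reached the median (adjusted p = 0.0327 against WT and 0.0264 against RNAi). RNAi differed from WT by -0.01.

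NRAMP6 (LOC4352640, chromosome 12) also had its lowest values in OE, with 7.70, 7.80 and 7.77 in OE, 7.94, 7.93 and 8.03 in RNAi, and 8.02, 7.91 and 7.95 in WT. Its differences were -0.20 for OE against WT (adjusted p = 0.14) and -0.21 for OE against RNAi (adjusted p = 0.0897), neither called.

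NRAMP4 (LOC4324486, chromosome 1) was measured by 5 probe sets that share a gene and do not count as replicates. The brightest, Os.27467.1.S1_at, read 11.02, 10.95 and 11.07 in OE, 10.68, 10.70 and 10.50 in RNAi, and 10.82, 10.82 and 10.83 in WT. The 3 groups did not overlap, with OE highest and RNAi lowest. OE was 0.39 higher than RNAi (SE 0.07, adjusted p = 0.0114), or 1.31-fold, and this was the only member call that held in all 16 alternatives (adjusted p between 0.00553 and 0.0489). The differences from WT were 0.19 in OE (adjusted p = 0.204) and -0.20 in RNAi (adjusted p = 0.289). A further bright probe set, Os.27467.3.S1_x_at, which may also match other transcripts by its suffix, was 0.30 higher in OE than in RNAi (adjusted p = 0.0201), a call lost without OE replicate 1 or 3 or RNAi replicate 3 and in the fit of those groups alone (up to 0.0732). The other 3 probe sets were not called, with differences of 0.08 to 0.38 between OE and RNAi. Of these, Os.46483.1.S1_at was lower than WT in both groups, by -0.29 in OE and -0.37 in RNAi, so the probe sets of the gene disagree in direction for OE against WT.

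**Figure D2:**
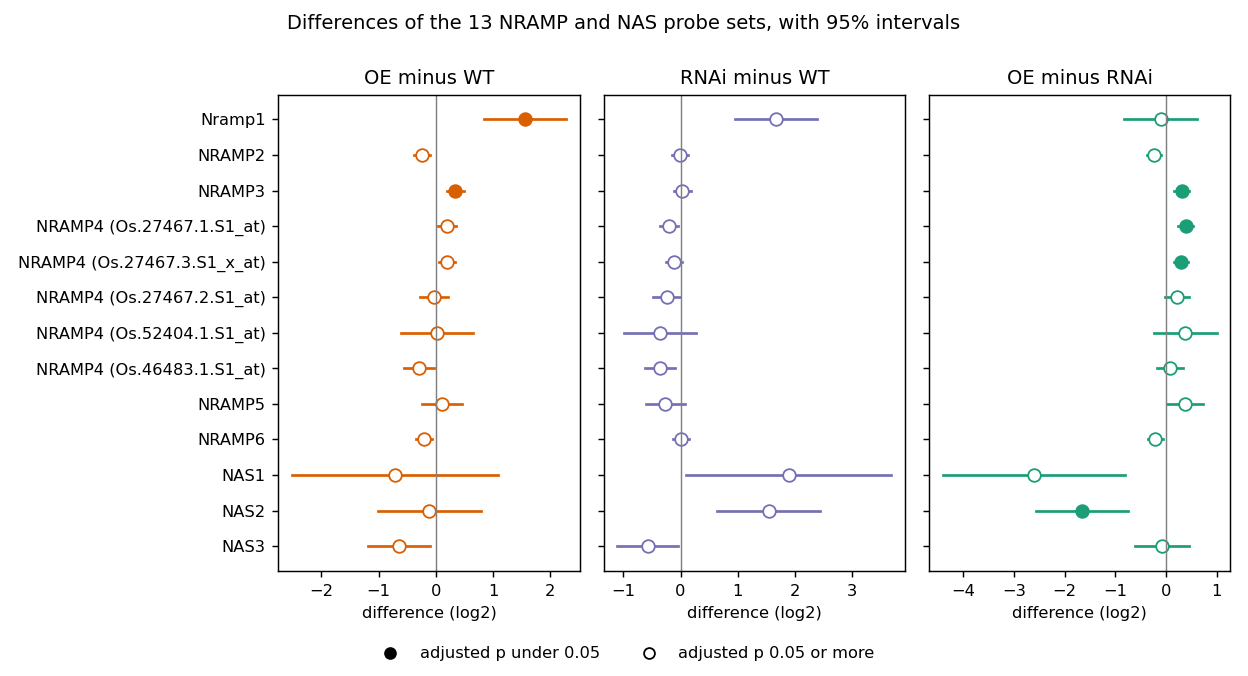
Differences (log2, horizontal axes) of all 13 probe sets between OE and WT, RNAi and WT, and OE and RNAi, with 95% intervals from limma; filled points have an adjusted p under 0.05, and NAS1 rests on dim values. Nramp1 lies to the right of 0 in both comparisons with WT and near 0 between the lines, whereas the NRAMP4 probe sets lie to the right of 0 between the lines.

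The nicotianamine synthase genes NAS1 and NAS2 were high on some RNAi arrays only. NAS2 (LOC4332607, chromosome 3) read 5.43, 5.67 and 5.80 in OE, 6.29, 8.22 and 7.35 in RNAi, and 6.25, 5.58 and 5.39 in WT. All RNAi values were above all others, but RNAi replicate 1 exceeded WT replicate 1 by little, and OE and WT overlapped. NAS2 was lower in OE than in RNAi by 1.66 on the log2 scale (SE 0.40, adjusted p = 0.0412). Relative to WT it stood at -0.11 in OE (adjusted p = 0.923) and 1.55 in RNAi (SE 0.40, adjusted p = 0.157). All OE values and those of WT replicates 2 and 3 were below the array medians. Since RMA compresses low values and detection calls were not used, the size of these NAS2 differences is uncertain. The call between the lines held in 6 of 16 alternatives. Removal of any 1 OE array, of RNAi replicate 2 or 3 or of WT replicate 2 or 3 ended it, as did the fit of those groups alone and moderation with an intensity trend (adjusted p up to 0.133). Without RNAi replicate 1 the difference between RNAi and WT was 2.04 (adjusted p = 0.0187).

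NAS1 (LOC4332608) stands beside NAS2 on chromosome 3 with no gene listed between them. It read 3.61, 4.84 and 4.28 in OE, 4.81, 8.43 and 7.31 in RNAi, and 5.96, 4.81 and 4.09 in WT. Only RNAi replicates 2 and 3 were clearly above the rest, and the RNAi SD of 1.85 was the widest of any member. NAS1 was not called for OE against WT (adjusted p = 0.709), RNAi against WT (adjusted p = 0.372) or OE against RNAi (adjusted p = 0.0914). The last of these passed the test without RNAi replicate 1 (adjusted p = 0.00684) and with array weights (adjusted p = 0.0138). Some OE and WT values were under the lower quartiles of the arrays and detection calls were not used here, so the size of the difference is not given. NAS1 and NAS2 encode closely related enzymes, and whether their probes also take up each other's transcript was not tested.

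NAS3 (LOC4344361, chromosome 7), the synthase gene known from leaves, had its highest mean in WT. It read 9.33, 9.27 and 9.09 in OE, 9.77, 9.49 and 8.65 in RNAi, and 9.81, 10.11 and 9.70 in WT. All OE arrays were below all WT arrays, and RNAi overlapped both. The differences from WT were -0.64 in OE (95% interval -1.18 to -0.11, adjusted p = 0.207) and -0.57 in RNAi (adjusted p = 0.367), neither called. Without RNAi replicate 3 or in the fit of OE and WT alone, the OE difference passed the test (adjusted p down to 0.0267).

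Counted together, the members gave 2 calls on 13 probe sets for OE against WT, both higher in OE, beside 2.94% of all 57194 probe sets (1.25% higher and 1.69% lower in OE). Between RNAi and WT none was called by limma, where 0.479% of all were called (0.261% higher and 0.219% lower in RNAi), and 7 of 13 had an unadjusted p under 0.05, beside 12.5% of all probe sets. Array weights called NAS2 and Nramp1 there, in a fit that called 1269 of all probe sets, beside 274 in the main fit. Between OE and RNAi 4 of 13 were called, 3 higher and 1 lower in OE, against 6.16% of all probe sets (3.14% higher and 3.02% lower in OE), and 2 of the 4 belong to NRAMP4. Most members were brighter than the typical probe set. Among probe sets whose mean reached the median, 2035 were called for OE against WT and 3756 for OE against RNAi. That set is smaller than all 57194, so its called shares were larger than those above. The groups did not overlap for 8 of 13 member probe sets between OE and WT (23.3% of all probe sets), 6 between RNAi and WT (16.3%) and 6 between OE and RNAi (23.2%). NRAMP4 supplied more than 1 of these in each comparison. Between RNAi and WT, all but Nramp1 and NAS2 were NRAMP4 probe sets, which do not count as replicates. The median difference of the members was -0.03, -0.11 and 0.08 in these comparisons, beside 0.02, 0.0018 and 0.0035 over all probe sets.

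The arrays of a group differed among themselves in Nramp1 and the NAS genes. By the rule for likeness, which ranked 3198 probe sets of named genes, the gene most like Nramp1 over the 9 arrays was IRO3 (listed as BHLH063, LOC4332972, chromosome 3), with Pearson r = 0.95 and Spearman rho = 0.98. IRO3 encodes a basic helix-loop-helix factor that restrains the iron shortage response of rice and is itself induced by iron shortage. It read 8.47, 8.78 and 8.96 in OE, 8.57, 9.01 and 9.37 in RNAi, and 8.31, 8.11 and 8.17 in WT. Within each group the arrays fell in the same order for IRO3 as for Nramp1. IRO3 itself was not called, at 0.54 in OE (adjusted p = 0.175) and 0.78 in RNAi (adjusted p = 0.127) relative to WT, though the RNAi difference passed the test with array weights or without RNAi replicate 1 (adjusted p down to 0.0261). EP3A (r = 0.92) and GL2 (r = 0.90, as the table names LOC4330436) came next, with differences of at most 0.31.

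NAS3 ran with VIT2 (LOC4346978), a vacuolar iron transporter that loads iron into the vacuole, a pair chosen after the values were seen. VIT2 read 8.32, 7.81 and 7.68 in OE, 8.88, 8.37 and 7.20 in RNAi, and 8.59, 9.45 and 8.84 in WT. Of the 3198 named probe sets VIT2 had the highest correlation with NAS3 over the arrays (r = 0.97, rho = 0.95), and its correlation with Nramp1 was -0.87. The array with the lowest VIT2 and NAS3 values, RNAi replicate 3, was the one with the highest Nramp1 and IRO3 values. The VIT2 differences, -1.02 for OE minus WT (adjusted p = 0.211) and -0.81 for RNAi minus WT (adjusted p = 0.425), were not called.

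The NAS1 and NAS2 profiles followed each other (r = 0.96, rho = 0.84) more than they followed Nramp1 (r = 0.41 for NAS1 and 0.53 for NAS2). For NAAT1 and IRT2, r with Nramp1 was -0.09 and 0.54, below the 0.95 of IRO3. After subtraction of each group's mean, r with Nramp1 among the members was 0.79 for NRAMP6, 0.67 for NAS1, 0.64 for NAS2 and -0.69 for NAS3, and between -0.32 and -0.12 for NRAMP2, NRAMP3, NRAMP4 and NRAMP5. By the same measure it was 0.91 for IRO3, -0.85 for VIT2, 0.43 for IRT2 and 0.36 for NAAT1. All these are descriptions over 9 arrays that share a group structure and 1 normalization, and part of the correlations before that subtraction comes from the differences between groups.

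**Figure D3:**
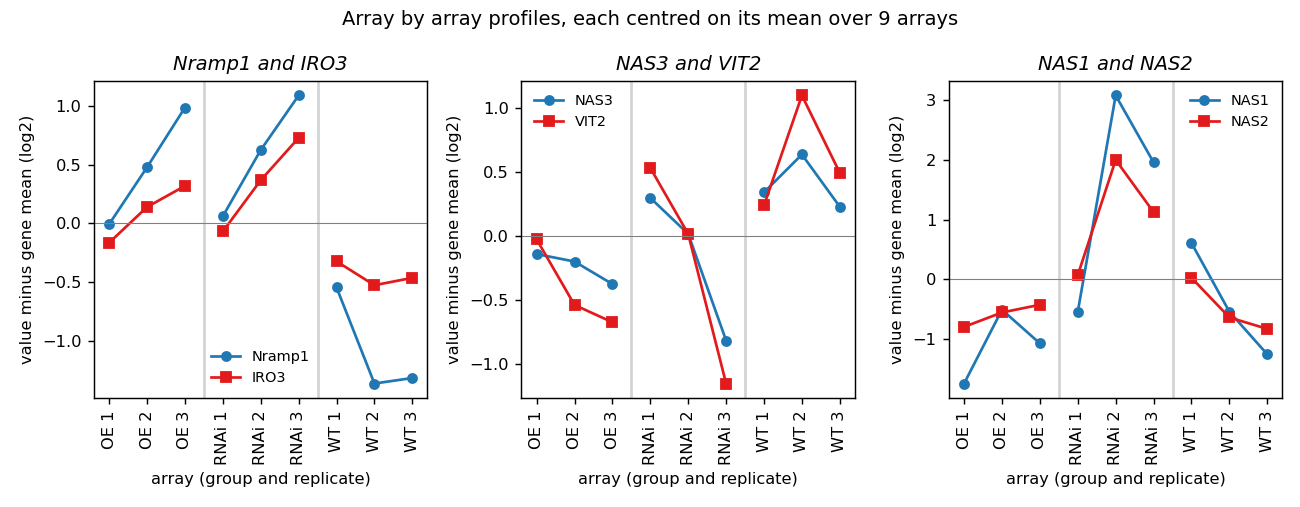
Values of Nramp1 with IRO3, NAS3 with VIT2, and NAS1 with NAS2 on each of the 9 arrays (horizontal axes, group and replicate), as the difference from the gene's mean over the arrays (log2, vertical axes); lines join the arrays of a group for reading only. The members of each pair rise and fall on nearly the same arrays, with RNAi replicate 3 at the top of the first pair and at the bottom of the second, and RNAi replicate 2 at the top of the third.

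The genes most like the other members differed. NRAMP3 was most like the floral MADS-box gene Lhs1 (r = 0.96) and the meiotic recombinase gene DMC1 (r = 0.95), both called higher in OE than in WT (2.33 and 1.22, adjusted p = 4.89e-06 and 0.000282), and a gene listed as gRASC8 (r = 0.95). NRAMP2 was most like HSF1 (r = 0.98), CAD8A (r = 0.97) and the phytoalexin P450 gene CYP76M7 (r = 0.97), of which CAD8A (-0.73, adjusted p = 0.0113) and CYP76M7 (-1.61, adjusted p = 0.00236) were called lower in OE than in WT. For NAS2 the nearest was NAS1, followed by GNA1 and OsGRAS-38 (both r = 0.90).

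Other genes of metal transport and of nicotianamine supply were taken from 8 lists of names, of which 7 matched 57 probe sets of 49 genes. In OE relative to WT, 2 of these probe sets were called higher and 1 lower, with a median of -0.0021, where 2.94% of all probe sets were called. None was called in RNAi relative to WT by limma, with a median of -0.02. An unadjusted p under 0.05 was found for 16 of the 57 for OE against WT, 9 for RNAi against WT and 19 for OE against RNAi. Over all probe sets the shares were 16.9%, 12.5% and 21.8%, so only the count for RNAi against WT was near that of all probe sets. Between OE and RNAi 3 were called higher and 1 lower in OE, with a median of -0.02, a share near the 6.16% of all probe sets. None of the 16 probe sets of the yellow stripe-like (YSL) transporters, which carry metal complexes of nicotianamine or mugineic acid, was called in any comparison by limma (2, 4 and 6 had an unadjusted p under 0.05 for OE against WT, RNAi against WT and OE against RNAi, beside 16.9%, 12.5% and 21.8% of all probe sets), and their differences ran from -0.31 to 0.40. The 3 heavy metal ATPase (HMA) probe sets were not called either, with HMA4 at -0.51 in OE against RNAi (adjusted p = 0.0518).

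NAAT1 (LOC9267778, chromosome 2) encodes nicotianamine aminotransferase, which uses the product of the NAS enzymes for mugineic acid synthesis. It read 11.05, 11.07 and 10.85 in OE, 11.32, 11.68 and 12.13 in RNAi, and 11.47, 11.60 and 11.55 in WT. The OE arrays were below all others. It was lower in OE than in RNAi by 0.72 on the log2 scale (SE 0.17, adjusted p = 0.0352), as NAS2 was, and differed by -0.55 in OE (adjusted p = 0.126) and 0.16 in RNAi (adjusted p = 0.741) relative to WT. The difference between OE and WT passed the test in 4 of 16 alternatives, without RNAi replicate 1 or 3, with array weights and in the fit of those groups alone (adjusted p down to 0.0155). The call between the lines held in 7 of 16 alternatives, and removal of any 1 OE or WT array or of RNAi replicate 2 ended it (adjusted p up to 0.111). The other genes on the list of mugineic acid synthesis and efflux were TOM20, a mitochondrial import receptor that the name pattern also reached, and genes listed as tom1 and tom2, whose role in metal transport the table does not settle. None of these was called.

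Among the ZIP family of zinc and iron importers, 1 of 10 probe sets was called. A gene listed as ZIP1 on chromosome 1 (LOC4326394) read 7.50, 6.86 and 7.50 in OE, 7.73, 7.68 and 7.88 in RNAi, and 7.98, 7.95 and 8.14 in WT. It fell by 0.74 in OE relative to WT (SE 0.16, adjusted p = 0.0375), a call that ended on removal of OE replicate 1, RNAi replicate 2 or any 1 WT array and in the fit of OE and WT alone (up to 0.156). Another gene with the same name, on chromosome 7, differed by -0.08. The iron importer genes IRT1 (-0.27 in OE and -0.38 in RNAi relative to WT) and IRT2 (0.04 and 0.66) were not called.

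Of the 10 probe sets of vacuolar and mitochondrial carriers, MTP4 and MTP7, of the metal tolerance protein family, were called higher in OE than in RNAi, by 0.70 (adjusted p = 0.0106) and 0.38 (adjusted p = 0.0196). The MTP4 call was lost without OE replicate 1 (0.0508), and the MTP7 call without OE replicate 1 or 3 or RNAi replicate 3 and in the fit of those groups alone (up to 0.0738). This MTP4 probe set was also higher in OE than in WT by 0.55 (adjusted p = 0.0472). That call ended with arrays centred and with the replicate block. It also ended on removal of any 1 array other than OE replicate 2 or RNAi replicate 3 (up to 0.167). The called MTP4 probe set read 4.46 to 5.51, below the array medians, as did the gene's other, slightly brighter one. That other probe set was not called, at 0.11 for OE against WT (adjusted p = 0.594) and 0.26 for OE against RNAi (adjusted p = 0.129). In the methionine cycle, which regenerates the substrate of the NAS enzymes, 1 of 9 probe sets was called. The bright ARD1 probe set read 9.84, 9.40 and 9.93 in OE, 8.21, 8.69 and 8.38 in RNAi, and 7.63, 8.02 and 7.95 in WT, and rose by 1.86 in OE relative to WT (adjusted p = 0.000495) and by 1.30 relative to RNAi (adjusted p = 0.00225), while the gene's other probe set differed by -0.07 from WT. Probe sets of the S-adenosyl-methionine synthetase genes SAM1 and SAM2 differed from WT by at most 0.22 in OE.

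**Figure D4:**
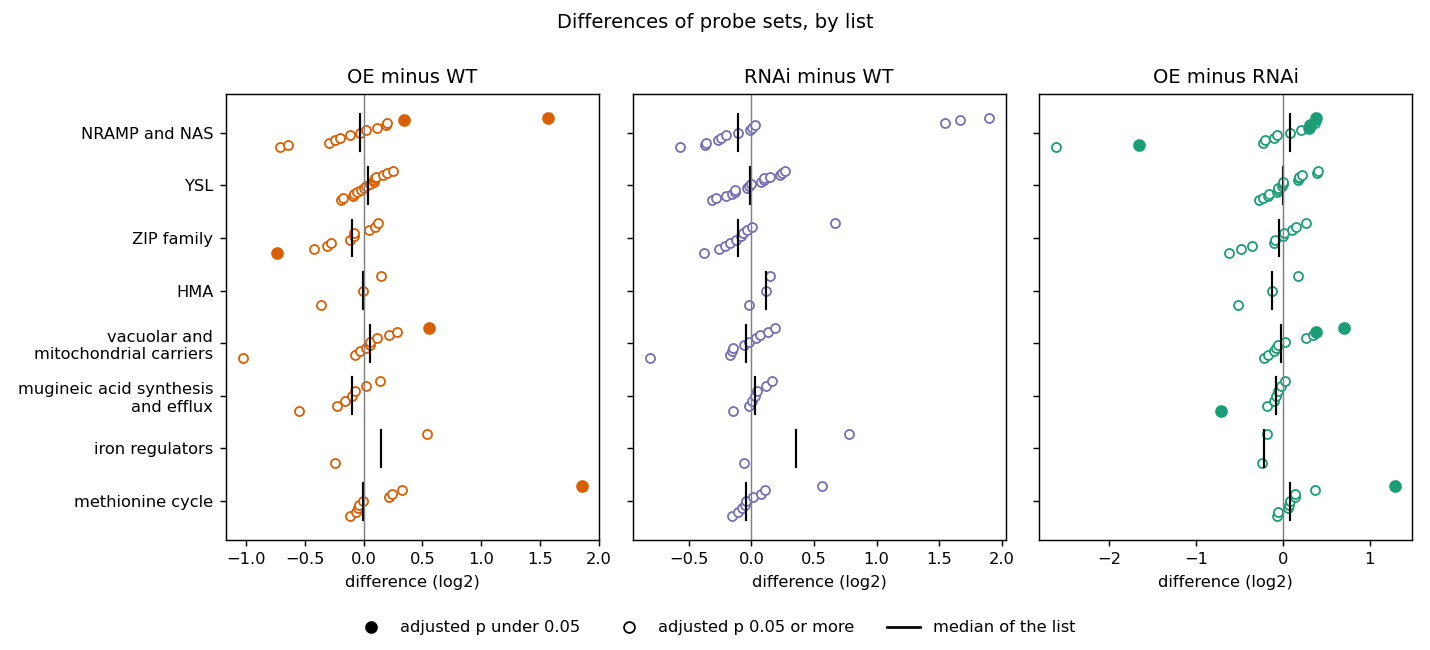
Differences (log2, horizontal axes) of the 13 NRAMP and NAS probe sets and of the probe sets in the 7 lists with probe sets, of metal transport and nicotianamine supply, for OE minus WT, RNAi minus WT and OE minus RNAi; filled points have an adjusted p under 0.05 and black lines are medians. Medians of the other lists lie between -0.10 and 0.15 for OE minus WT, and the points farthest to the right for RNAi minus WT are NAS1, Nramp1 and NAS2.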

How the data were processed

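The authors deposited 1 table of log2 values, which their processing notes say were made with RMA (background correction, quantile normalization and summary per probe set; its version is not stated). RMA draws arrays towards 1 distribution and compresses low values; scanner intensities were not used here. Of 57381 deposited probe sets, 187 for controls and reporters were dropped. Genes were named through the platform annotation and a RefSeq gene table of assembly ASM3414082v1, matched by gene ID; 22436 of the tested probe sets had 1 listed gene, and all 22436 were found. No coordinates are given, because the builds could not be matched.

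With limma 3.58.1 in R 4.3.3, all 9 arrays entered 1 model of group means (6 residual and 3.78 prior degrees of freedom), two-sided, with Benjamini-Hochberg adjustment over 57194 probe sets, and calls required an adjusted p below 0.05. The script was tested on simulated data. Adjusted p-values are those of limma, and they measure the spread between pools of seedlings. The number of arrays limits the precision. Groups came from the labels. All member probe sets are named; of the other lists, called probe sets and the 2 of largest difference per comparison could be named. NAS3 with VIT2, the genes between NRAMP5 and Nramp1 and some markers were added after values were seen. Members and lists were chosen with earlier results of these data known. Alternatives changed the samples fitted, scaling, filter, moderation, array weights, control probe sets, replicate block and each array left out.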

Additional observations from a re-analysis of the deposited data

Results flagged for a closer look

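Some effects relative to WT differed between OE and RNAi by the test of the difference itself, OE minus RNAi in limma. They were NAS2 (-1.66), NRAMP3 (0.31) and NRAMP4 on Os.27467.1.S1_at (0.39) and Os.27467.3.S1_x_at (0.30) among the members. Among the listed genes they were ARD1 (1.30), NAAT1 (-0.72), MTP4 (0.70) and MTP7 (0.38). The adjusted p ran from 0.00225 for ARD1 to 0.0412 for NAS2.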

How the results depend on the processing

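Over 16 alternatives, 841 values of single probe sets kept their direction and side of the threshold, 64 lost a call, 25 gained one and 21 changed sign, none of them a called difference. Over all probe sets, OE against WT had 1680 calls, 3929 with array weights and 937 with the replicate block, and 527 to 1939 with 1 array left out (664 without OE replicate 1, 926, 579 and 527 without WT replicate 1, 2 and 3). RNAi against WT had 274 calls, 167 in the fit of those groups alone, 1269 with array weights, and 118 to 512 with 1 array left out (512 and 141 without RNAi replicate 1 and 2, 139 and 118 without WT replicate 2 and 3). OE against RNAi had 3521 calls, 1805 in the fit of those groups alone, 6310 with array weights, and 1693 to 4141 with 1 array left out (1693 and 2238 without OE replicate 1 and 3, 1881 without RNAi replicate 2). The cause of these shifts was not tested. Fits with 1 array left out also have fewer arrays, and their counts moved in both directions. Centring arrays on their medians changed the share of calls higher in OE against WT to 32.6%, beside 42.6% without it.

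Over all probe sets, same-numbered arrays did not deviate together (r from -0.328 to 0.116, beside -0.211 to 0.283 for other numbers). With 3 arrays per group this cannot exclude that the numbers pair samples. For Nramp1 the order was replicate 3, 2, 1 in both OE and RNAi, but 1, 3, 2 in WT. With the replicate block, 209 and 2455 probe sets were called for RNAi against WT and OE against RNAi, and Nramp1, NRAMP3, NAS2 the less bright of the called NRAMP4 probe sets, NAAT1, MTP7 and MTP4 (OE against WT) lost their calls.

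Uncalled differences changed sign as follows. With arrays centred, NRAMP4 on Os.52404.1.S1_at was -0.0103 for OE minus WT and NRAMP6 -0.019 for RNAi minus WT, and NRAMP6 was -0.0053 with array weights. With 1 array left out, OE minus WT ran from -0.29 to 0.14 for NAS2, from -0.11 to 0.0197 for NRAMP4 on Os.27467.2.S1_at and from -0.0706 to 0.17 on Os.52404.1.S1_at. RNAi minus WT ran from -0.0233 to 0.0063 for NRAMP2, -0.0118 to 0.0631 for NRAMP3, -0.0276 to 0.0351 for NRAMP6 and -0.0466 to 0.36 for NAAT1. OE minus RNAi ran from -0.40 to 0.16 for NAS3, -0.063 to 0.15 for NRAMP4 on Os.46483.1.S1_at, -0.37 to 0.14 for Nramp1 and -0.69 to 0.16 for VIT2. The filter on dim probe sets left out NAS1, MTP4 on Os.34767.1.S1_at and NRAMP4 on Os.46483.1.S1_at. Signal over background was not measured here, which limits what can be read from NAS1 and other dim probe sets.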
